A study of Homo sapiens with 26 samples.

Results

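The DNA replication and nucleotide synthesis genes are a list of 43 human genes. They were taken by symbol from the 26485 symbols that each of the 5 deposited expression tables holds, and all 43 had a mean of 10 or more in every table, as did 11337 symbols in all. The tables came from RNA sequencing (RNA-seq) of 26 libraries of KYSE180, TE6 and KYSE150 cells, which are established human esophageal squamous cell carcinoma (ESCC) lines. The study asked what BRDT, a bromodomain protein normally restricted to the male germ line, does in such cells, and how its role relates to p63, the squamous lineage transcription factor encoded by TP63. RNA was sequenced after knockdown of either gene or after forced expression of BRDT.

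The knockdown groups were made with small interfering RNA (siRNA) and, per the study's methods, harvested 48 h after transfection. KYSE180 cells received siBRDT (n = 3) or its own siCont control (n = 3), and in a separate experiment siTP63 (n = 2) or siCont (n = 2). TE6 cells received siCont, siBRDT or siTP63 (n = 2 each), so both TE6 knockdowns share their control libraries. KYSE150 cells received siTP63 (n = 2) or siCont (n = 2). In another experiment KYSE150 cells were electroporated with a BRDT plasmid (BRDT-OE, n = 3) or a control vector (n = 3). Every group of a table carried the same cell line, and each line is a single cancer isolate without further alleles named in the labels. Nothing in the labels says that replicates were separate cultures, so the p-values measure the spread between these libraries, which may be technical.

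Before a cell divides, origins of replication are licensed when ORC, CDC6 and CDT1 load the MCM2-7 helicase onto chromatin. In S phase CDC45, the GINS complex and MCM10 turn the helicase into a moving fork, where primase, the DNA polymerases, the PCNA clamp with its RFC loader, FEN1, LIG1 and RPA copy both strands, and RRM1, RRM2, TYMS, TK1 and DUT supply or purify the deoxynucleotides. Many of these genes are textbook targets of E2F transcription factors, which the retinoblastoma family holds back in quiescent cells, and their transcripts are therefore abundant in cycling cells.

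Promoters of 37 of the 43 genes were found in the RefSeq promoter table (GRCh38.p14), each with 250 bases before and 50 after the annotated start. Of these, 21 (56.8%) held at least 1 of 4 E2F heptamers (TTTCCCG, its variant TTTCGCG, the further variant TTTGCCG and, last, the variant TTTGGCG) on either strand, against 8.69% of the 27305 promoters in that table. The CCAAT box was found in 20 (54.1%), against 35.7%, and the CHR element TTTGAA in 1 (2.7%), against 15.4%. A match describes the letters in this window and is not a bound site. The 5 stretches below run from 200 bases before to 20 bases after the start, and are shown because they belong to genes followed in every comparison and hold such matches. RRM2 and TK1 held no heptamer in the window, and TYMS held 1 that is not printed. E2F heptamers, on either strand, are in capitals. Those of CDT1 adjoin each other and those of MCM2 overlap.
CDC6, chr17:40287679-40287898, plus strand: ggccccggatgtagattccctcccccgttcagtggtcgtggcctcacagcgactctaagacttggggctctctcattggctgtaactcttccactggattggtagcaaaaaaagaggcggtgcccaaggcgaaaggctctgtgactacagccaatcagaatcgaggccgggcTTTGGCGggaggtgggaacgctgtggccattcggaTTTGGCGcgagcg
CDT1, chr16:88803589-88803808, plus strand: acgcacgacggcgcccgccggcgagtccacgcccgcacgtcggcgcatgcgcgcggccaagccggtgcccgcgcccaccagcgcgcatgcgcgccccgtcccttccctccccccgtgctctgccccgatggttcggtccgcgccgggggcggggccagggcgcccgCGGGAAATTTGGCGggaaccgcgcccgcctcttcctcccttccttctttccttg
MCM2, chr3:127598211-127598430, plus strand: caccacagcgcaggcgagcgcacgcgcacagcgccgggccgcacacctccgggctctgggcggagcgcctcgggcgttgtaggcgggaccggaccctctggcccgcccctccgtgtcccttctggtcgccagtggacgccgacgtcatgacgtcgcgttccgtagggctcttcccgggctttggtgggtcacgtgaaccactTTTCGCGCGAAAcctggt
MCM7, chr7:100101378-100101597, minus strand: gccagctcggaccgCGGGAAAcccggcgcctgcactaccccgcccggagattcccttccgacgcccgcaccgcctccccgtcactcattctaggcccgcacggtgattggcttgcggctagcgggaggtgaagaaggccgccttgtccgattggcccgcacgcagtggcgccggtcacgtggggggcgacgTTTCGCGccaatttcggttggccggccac
PCNA, chr20:5126603-5126822, minus strand: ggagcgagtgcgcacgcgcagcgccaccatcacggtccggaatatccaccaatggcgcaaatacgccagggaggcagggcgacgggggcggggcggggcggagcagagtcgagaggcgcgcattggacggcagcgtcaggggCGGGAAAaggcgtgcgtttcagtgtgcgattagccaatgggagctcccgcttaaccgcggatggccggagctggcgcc

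Values are gene read counts divided by the size factor of their library, called normalised read counts here. Libraries held between 7582089 and 19372441 reads, and none of the 43 genes had fewer than 83 reads in any library. A gene was called when its limma test gave a Benjamini-Hochberg adjusted p under 0.05 and a log2 fold change, on the log2(value + 1) scale, of at least 0.5 in either direction. The targeted genes moved in the direction of their labels. In means of normalised read counts, BRDT fell from 1065 to 159 in KYSE180 and from 241.5 to 50.8 in TE6 after siBRDT, and rose from 10.25 to 16450 in BRDT-OE cells, where the controls held only 9, 17 and 6 reads of BRDT. TP63 fell by 69.4% in KYSE180, 95.4% in TE6 and 80.0% in KYSE150 after siTP63, the last without passing the adjusted threshold (adjusted p 0.082). It also fell after siBRDT, by 33.1% in KYSE180 and by 54.9% in TE6. Squamous markers were detected in all tables (7 or 8 of 8 markers with a mean of at least 1 CPM, counts scaled to equal library totals), while the summed level of 4 leukocyte markers never passed 4.04 CPM. Summed levels ran from 507 to 9590 CPM for the squamous list and 1970 to 7890 for 4 simple epithelial markers. They ran from 3.8 to 110 for 5 fibroblast markers and 0.637 to 12.1 for 3 endothelial markers. In KYSE150 the simple epithelial sums exceeded the squamous sums, at 3300 to 7890 against 507 to 1200 in the siTP63 experiment. In the BRDT-OE experiment they were 3870 to 4670 against 1020 to 1280. The squamous sums were the higher ones in the KYSE180 siBRDT experiment (5490 to 9590 against 1970 to 2410). In the KYSE180 siTP63 experiment and in TE6 the ranges overlapped.

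**Figure D1:**
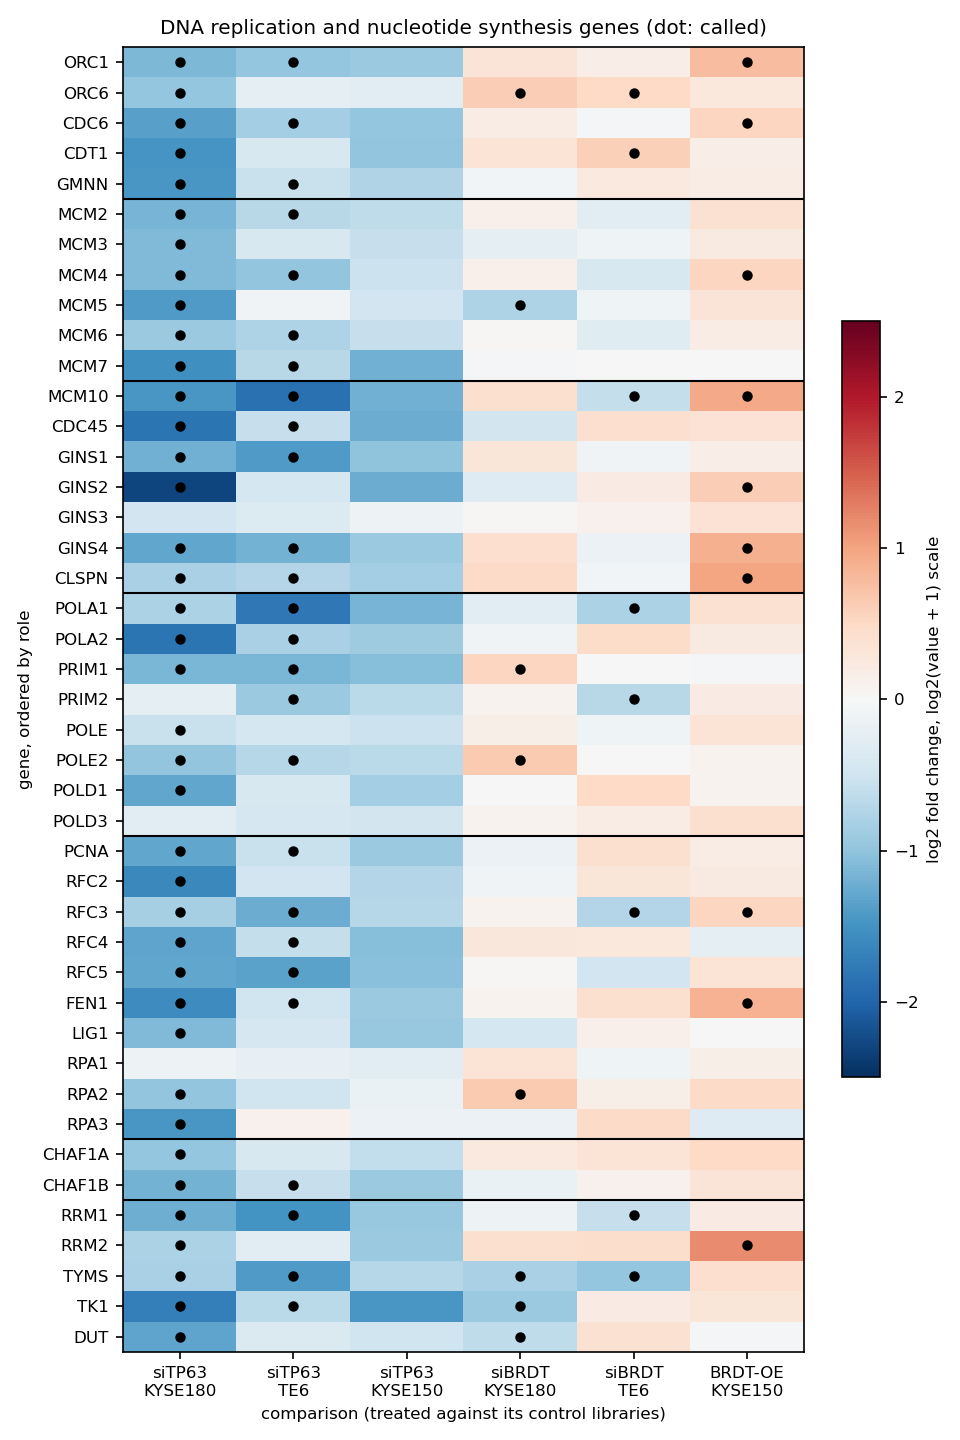
Log2 fold changes (log2(value + 1) scale, colour) of the 43 genes (vertical axis, ordered by role, with lines between roles) in the 6 comparisons (horizontal axis). Black dots mark called genes, of which there are 39 for siTP63 in KYSE180, 26 for siTP63 in TE6, 0 for siTP63 in KYSE150, 8 for siBRDT in either line and 10 for BRDT-OE, all higher in the last.

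TP63 depletion in KYSE180 lowered nearly the whole list. Of the 43 genes, 39 were called lower and 0 higher, at a median log2 fold change of -1.18. Over all 13924 genes tested the median was 0.00, and 25.7% were called lower and 23.6% higher. In 42 genes every siTP63 library lay below every siCont library, which held for 40.4% of all genes. Among the 8408 genes expressed at least as highly as the lowest member, 33.2% were called lower and their median was -0.18. As these are bulk libraries, fewer cells of a type (such as cells in S phase) and less RNA per cell cannot be told apart.

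The largest falls were in GINS2, POLA2, CDC45 and TK1. GINS2, a GINS subunit, read 7047 and 6490 in siCont and 1529 and 1233 in siTP63 and thus fell by 79.6% (log2 fold change -2.30 ± 0.15 SE, adjusted p 3.8e-12). CDC45, the helicase cofactor, went from 1507 and 1266 to 403 and 378 and fell by 71.8% (adjusted p 1.9e-10). The accessory subunit of polymerase alpha, POLA2, went from 2712 and 2428 to 772 and 677 and also fell by 71.8% (adjusted p 1.1e-10). The groups of these 3 genes lay far apart. TK1, the salvage kinase for thymidine, was among the most abundant members and fell from 22260 and 19120 to 6837 and 5857 (log2 fold change -1.70 ± 0.17, adjusted p 4.7e-09).

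All 6 MCM2-7 genes and all 5 licensing genes were called lower. MCM7 read 22380 and 19760 in siCont and 7512 and 6926 in siTP63 (log2 fold change -1.54 ± 0.16), and MCM2 read 10980 and 9668 against 4610 and 4620 (-1.16 ± 0.15). The other MCM genes fell by between 0.92 for MCM6 and 1.42 for MCM5 on the log2 scale. CDC6, the licensing ATPase, went from 1812 and 1648 to 654 and 693 (-1.36 ± 0.14). CDT1, which brings MCM2-7 to origins, went from 3849 and 2929 to 1240 and 1161 (-1.48 ± 0.15), and its inhibitor GMNN fell alongside it by 1.46 on the log2 scale. Promoter stretches of these MCM, CDC6 and CDT1 genes are printed above.

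At the fork, 9 of 10 clamp, loader, maturation and single-strand binding genes were called lower. PCNA went from 3948 and 4273 to 1779 and 1591 (-1.29 ± 0.14, adjusted p 3.2e-08), and the large RPA subunit RPA1 was the exception, with 4654 and 4672 against 4179 and 4431 (-0.12 ± 0.14, adjusted p 0.50). Among polymerase and primase genes 6 of 8 were called lower, and PRIM2 and POLD3 were not. PRIM2, the large primase subunit, overlapped between groups at 285 and 384 against 271 and 295, whereas its partner PRIM1 fell by 55.2%. GINS3 passed the adjusted p but stayed under the fold limit (-0.48 ± 0.14, adjusted p 0.0043).

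The nucleotide genes fell as well, with all 5 called. RRM2, the regulated subunit of ribonucleotide reductase, went from 2565 and 2399 to 1409 and 1447 (-0.80 ± 0.14, adjusted p 2.5e-05), and its partner RRM1 fell further (-1.23 ± 0.14). TYMS, which makes thymidylate, went from 1046 and 929 to 558 and 563 (-0.81 ± 0.14, adjusted p 2.8e-05). These groups did not overlap.

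The normalised totals of this table differed between groups, at 17.3 and 16.6 (in units of 1e6) in siCont and 12.1 and 11.5 in siTP63, and genes of ribosomal proteins took 10.1% and 11.0% against 6.49% and 5.86% of them. With libraries rescaled to equal totals the median of the 43 genes was -0.66 and the median of all genes moved to 0.52. Of the 43 genes 28 were called lower and 0 higher, against 10.5% and 48.3% of all genes. Relative to the median of all genes the 43 genes stood at -1.18 under either scaling. Rescaling whole libraries moves all genes nearly alike, so that gap could hardly change and does not test the scaling. Of all calls 52.1% were downward as deposited, 46.4% or 35.5% with 2 forms of upper-quartile rescaling and 17.8% with equal totals. All 10 interferon-response genes listed were called higher in the same libraries. The part of these differences in the falls was not tested.

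**Figure D2:**
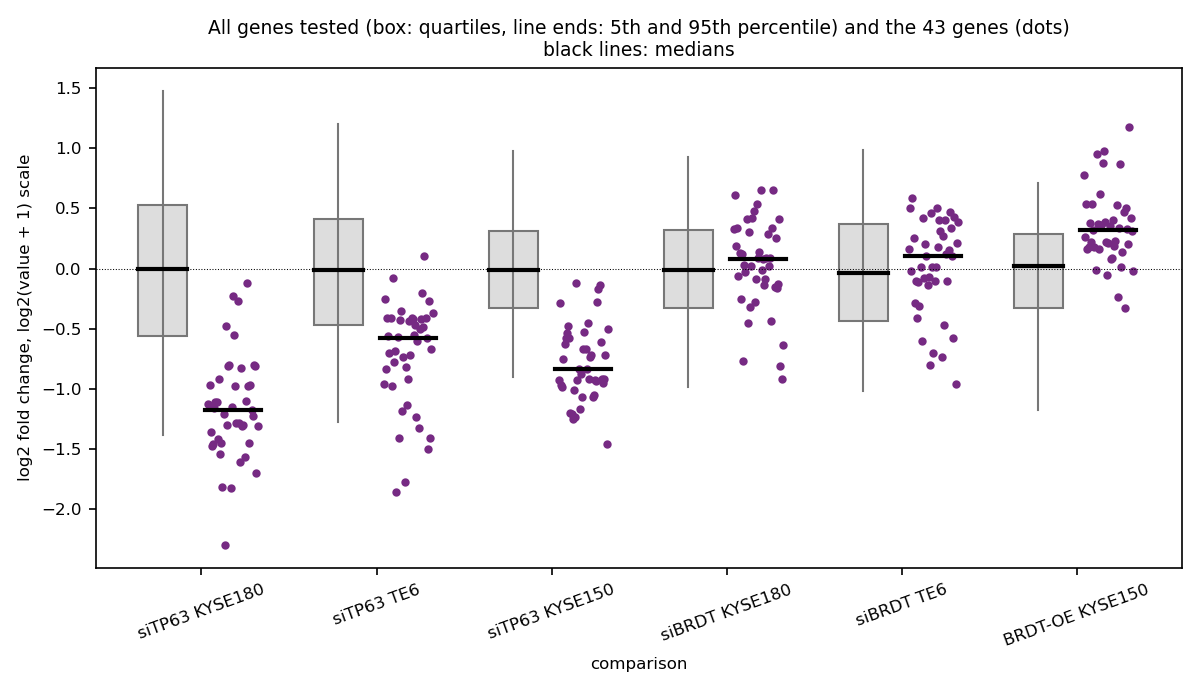
Log2 fold changes (vertical axis, log2(value + 1) scale) in the 6 comparisons (horizontal axis) for all genes tested (grey boxes, quartiles, with lines from the 5th to the 95th percentile) and for each of the 43 genes (purple dots). Black lines are medians, which for the 43 genes lie at -1.18, -0.58 and -0.84 after siTP63, at 0.08 and 0.10 after siBRDT and at 0.32 in BRDT-OE cells.

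In TE6, TP63 depletion also lowered most of the list, with fewer genes called. Here 26 of the 43 genes were called lower and 0 higher, against 20.6% and 18.3% of the 13333 genes tested, and the median was -0.58 against -0.01 for all genes. Every siTP63 library lay below every siCont library in 42 genes, against 40.7% of all genes. An adjusted p under 0.05 without the fold limit was reached by 38 genes, all lower, against 25.8% of all genes that were lower by that rule. Of the 39 genes called lower in KYSE180, 25 (64.1%) were called lower in TE6, and they made up 96.2% of the TE6 calls. PRIM2 was the gene called in TE6 and not in KYSE180. Interferon-response genes moved here too, 7 of 10 called higher, and the ribosomal protein share was 14.1% and 12.8% against 10.4% and 10.2% in siCont. Their part in the falls was not tested.

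MCM10, POLA1, RRM1 and GINS1 fell the most in TE6. MCM10, which helps to activate the helicase, read 584 and 657 in siCont and 177 and 163 in siTP63 and fell by 72.6% (-1.86 ± 0.13, adjusted p 4.0e-07). POLA1, the catalytic subunit of polymerase alpha, went from 368 and 417 to 104 and 123 (-1.78 ± 0.18, adjusted p 7.7e-06). RRM1 went from 2592 and 2690 to 990 and 874.5 (-1.50 ± 0.11, adjusted p 4.0e-07). All of these groups were well separated. GINS1 fell from 888 and 902 to 351 and 321 (-1.41 ± 0.12).

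MCM5 and RPA3 stayed near their controls. MCM5 read 2075 and 2218 in siCont and 2008 and 2051 in siTP63 (-0.08 ± 0.10, adjusted p 0.53). RPA3, the smallest RPA subunit, read 942 and 941 against 1030 and 991 (0.10 ± 0.13, adjusted p 0.54), and was the only member with a value above 0. The other MCM2-7 genes fell, and MCM2 and MCM7 ran in parallel. MCM2 went from 5401 and 5309 to 3193 and 3403 (-0.70 ± 0.12), and MCM7 from 3604 and 3619 to 2263 and 2202 (-0.69 ± 0.10). MCM3 fell by 0.41 on the log2 scale, under the fold limit, with an adjusted p of 0.013.

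Of the remaining genes followed throughout, CDC6 went from 1957 and 1958 to 1121 and 1070 (-0.84 ± 0.11, adjusted p 5.6e-05), whereas CDT1, at 1635 and 1489 against 1149 and 1206, passed the adjusted p (0.0045) but not the fold limit. PCNA went from 2803 and 2983 to 2008 and 1940 (-0.55 ± 0.09). TYMS fell by 62.5%, from 471 and 434 to 175 and 164 (-1.41 ± 0.14), and TK1 from 4290 and 4059 to 2549 and 2703 (-0.67 ± 0.09). RRM2 moved least of the nucleotide genes, from 1062 and 1126 to 904 and 911.5 (-0.27 ± 0.10, adjusted p 0.040). None of these groups overlapped.

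In KYSE150 all 43 log2 fold changes lay below 0 after TP63 depletion, as did 50.7% of all genes, but none passed the adjusted threshold. The median log2 fold change was -0.84, against -0.01 over the 12335 genes tested, and in 41 genes both siTP63 libraries lay below both controls, against 24.6% of all genes. limma called 0 of the 43 genes and 0 of all genes (0% of those tested), and the lowest adjusted p of a member was 0.11. At an unadjusted p under 0.05, 32 members were lower and 0 higher, against 9.12% and 8.67% of all genes. On the recovered reads edgeR called 0 members and DESeq2 called 15 lower, against 2.1% of all genes. A fit pairing libraries of opposite replicate number was added after seeing the data, because same-numbered libraries deviated in opposite directions. It called 36 members lower and 0 higher, with 1774 of the 12335 genes lower and 1626 higher. That pairing was chosen from the same deviations that set its error, and no label gives it. Its calls therefore cannot serve as a test. Removing a trend on length and GC content gave 18 lower, against 2.78% of all genes. Leaving out any 1 library gave member medians of -0.88 to -0.78.

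The largest log2 fold change was in TK1, which read 6725 and 5076 in siCont and 1642 and 2756 in siTP63 (-1.46 ± 0.32, adjusted p 0.13). MCM7 read 15320 and 12480 against 5308 and 6855 (-1.20 ± 0.27, adjusted p 0.14), and MCM2 4367 and 4640 against 3058 and 2767 (-0.63 ± 0.20, adjusted p 0.21). The SE of MCM7 was 0.27 here and 0.097 in TE6. CDC6 read 2039 and 2383 against 1144 and 1106 (adjusted p 0.12), and CDT1 2158 and 1604 against 764.5 and 1142 (adjusted p 0.17). PCNA read 5689 and 5351 against 2649 and 3207 (adjusted p 0.14). The groups of these genes did not overlap. RRM2 read 3089 and 3595 against 1780 and 1747 (adjusted p 0.13), and TYMS 814 and 965 against 597.5 and 482 (adjusted p 0.19). RPA3 overlapped, at 4330 and 2872 against 2474 and 4152, as did RPA1.

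**Figure D3:**
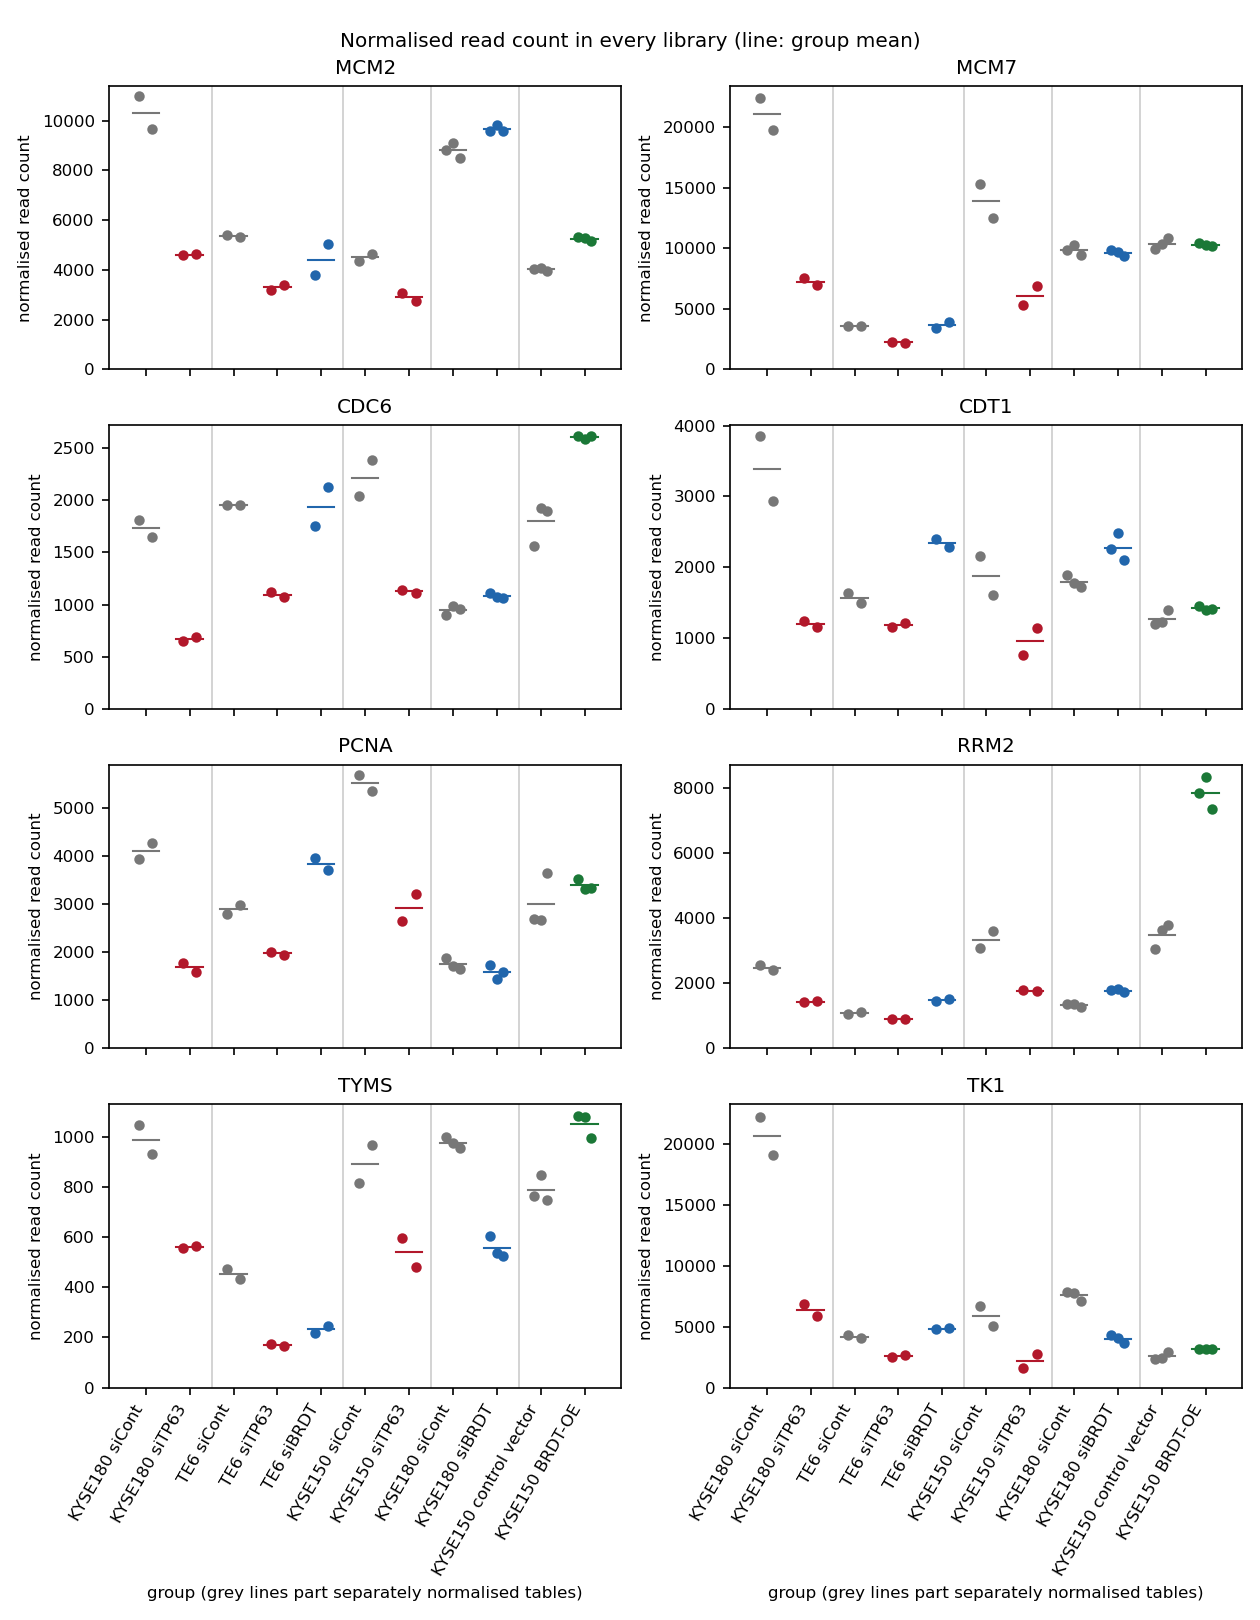
Normalised read counts (vertical axes, linear from 0) of 8 genes in every library (points), by group (horizontal axis), with lines at group means. Controls are grey, siTP63 red, siBRDT blue and BRDT-OE green, and levels are comparable only between grey vertical lines. TYMS lies below its controls in each knockdown, and RRM2 stands above its controls in BRDT-OE, at 7377 to 8351 against 3052 to 3790.

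Whether the TP63 response differed between lines was tested directly, as the difference of the 2 log2 fold changes in a single limma fit. Between TE6 and KYSE180, 27 of the 43 genes differed at an adjusted p under 0.05, against 55.0% of the 12780 genes tested. The fold change stood higher in TE6 for 24 of them and lower for 3, against 28.8% and 26.2% of all genes. The gap between the member medians of the lines varied with the scaling. In KYSE180 and TE6 they were -1.11 and -0.49 with upper quartiles over a shared gene set. Over each library's own genes they were -0.96 and -0.50. With equal totals the member medians were -0.66 in KYSE180 and -0.59 in TE6, against -1.18 and -0.58 as deposited. The median of all genes in KYSE180 then moved to 0.52. GINS2 differed by 1.87 (95% interval 1.50 to 2.23, adjusted p 2.2e-07), RPA3 by 1.55 (1.15 to 1.95, adjusted p 2.7e-06) and MCM5 by 1.34 (0.95 to 1.73, adjusted p 9.3e-06). With upper quartiles over each library's own genes 17 members differed, a setting for which the share of all genes is not given here. POLA1 (-0.98, adjusted p 0.0053), PRIM2 (-0.69, adjusted p 0.023) and TYMS (-0.60, adjusted p 0.013) stood lower in TE6. For the other 16 members no difference was found, with intervals of varying width. That of PRIM1 ran from -0.40 to 0.42 and that of RFC5 from -0.47 to 0.41.

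KYSE150 differed from neither line in any member by this test. Against KYSE180 the lowest adjusted p was 0.078 (RPA2, difference 0.81, interval 0.36 to 1.26), with 11 members at an unadjusted p under 0.05, against 26.4% of all genes, and DESeq2 gave 4 members and edgeR 0. Of all genes 1.62% differed at the adjusted threshold by limma. Shares of all genes in the other fits of this paragraph are not given. Without KYSE150 siTP63 replicate 1 the count was 9. Against TE6 the lowest adjusted p was 0.088 (RRM2, difference of TE6 from KYSE150 0.65, interval 0.22 to 1.08), with 9 members at an unadjusted p under 0.05, against 23.6% of all genes, 1 by DESeq2 and 0 by edgeR, and 3.86% of all genes differed. Without KYSE150 siTP63 replicate 2 the count was 11.

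**Figure D4:**
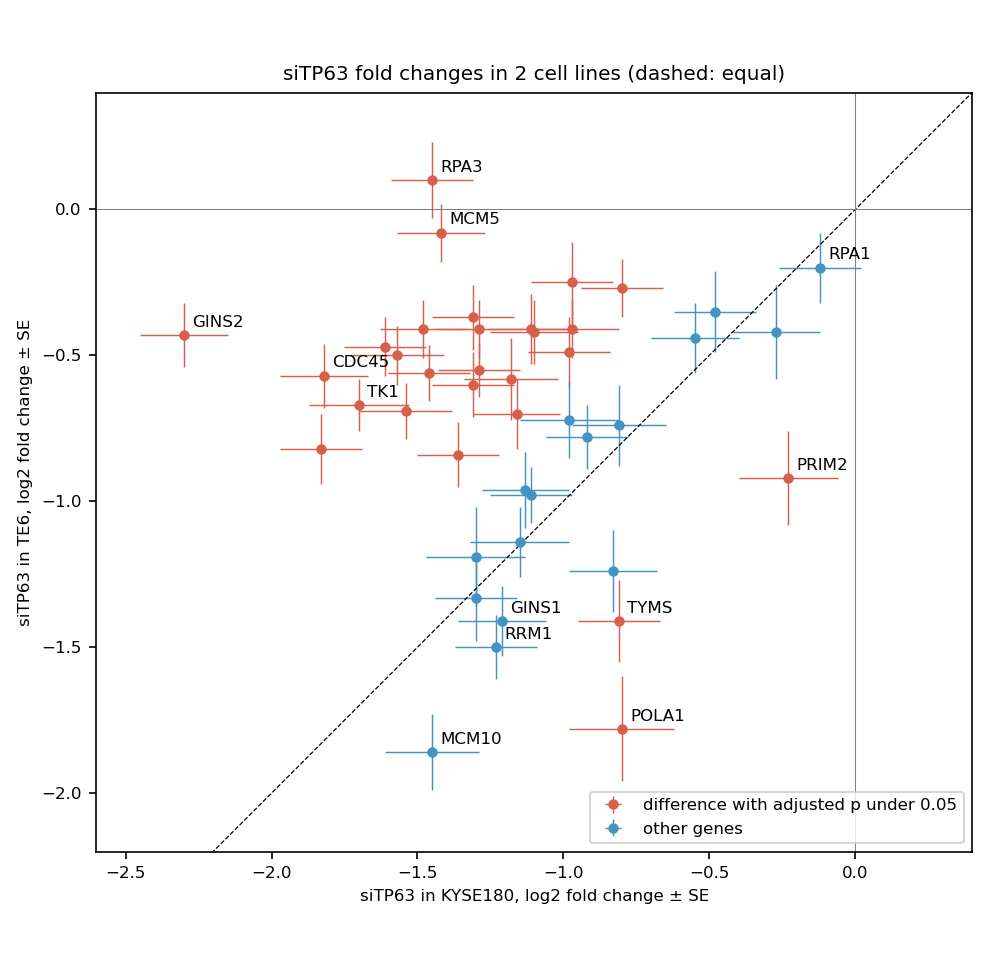
Log2 fold changes after siTP63 in KYSE180 (horizontal axis) and TE6 (vertical axis), with SE bars, for the 43 genes. Red points are the 27 genes whose fold changes differed (adjusted p under 0.05), the dashed line marks equal values, and 24 of the red points stand higher in TE6.

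BRDT depletion moved a few members in both directions. In KYSE180, 4 of the 43 genes were called lower and 4 higher, against 15.8% and 14.5% of the 13589 genes tested. Among the 8045 genes expressed at least as highly as the lowest member, 13.7% were called lower and 10.9% higher. The median of the 43 genes was 0.08, against -0.01 for all genes. Without the fold limit 9 were lower and 15 higher at an adjusted p under 0.05, against 29.8% and 28.6% of all genes. TK1 read 7872, 7755 and 7115 in siCont and 4298, 4073 and 3681 in siBRDT and fell by 47.0% (-0.92 ± 0.07, adjusted p 4.6e-08). TYMS went from 998, 974 and 952 to 605, 537 and 526 (-0.81 ± 0.07, adjusted p 3.1e-07). MCM5 went from 2031, 2128 and 1909 to 1296, 1165 and 1103 (-0.77 ± 0.07, adjusted p 4.6e-07). These falls were seen in all 3 siBRDT libraries. DUT, the enzyme that removes dUTP, went from 1999, 1848 and 2018 to 1422, 1250 and 1100 (-0.64 ± 0.08), although 8 annotated pseudogenes resemble it.

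The 4 genes called higher were ORC6, PRIM1, POLE2 and RPA2. POLE2, a polymerase epsilon subunit, rose from 236, 260 and 283 to 427, 409 and 391 (0.65 ± 0.09, adjusted p 2.1e-05). RPA2 rose from 828, 761 and 743 to 1266, 1233 and 1149 (0.65 ± 0.07, adjusted p 2.0e-06). ORC6, an origin recognition subunit, rose by 52.9% and the primase subunit PRIM1 by 45.4%. No group of these genes overlapped.

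MCM2, MCM7 and PCNA were not called. MCM2 read 8803, 9100 and 8501 against 9585, 9806 and 9577 (0.13 ± 0.06, adjusted p 0.060), and MCM7 9830, 10280 and 9437 against 9831, 9659 and 9374 (-0.03 ± 0.06). PCNA read 1884, 1720 and 1644 against 1742, 1434 and 1577 (-0.14 ± 0.08, adjusted p 0.12). MCM7 and PCNA thus overlapped between groups. CDC6 read 904, 985 and 959 against 1114, 1071 and 1060 (0.19 ± 0.07, adjusted p 0.022), CDT1 1883, 1776 and 1722 against 2253, 2481 and 2099 (0.34 ± 0.07), and RRM2 1366, 1370 and 1267 against 1787, 1808 and 1726 (0.41 ± 0.06, adjusted p 4.9e-05). These stayed under the fold limit. With equal totals 7 members were called higher, against 18.5% of all genes. The downward share of all calls went from 52.1% to 40.3%.

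In TE6, siBRDT lowered 6 members and raised 2, against 18.1% and 15.6% of all genes, at a median of 0.10 against -0.04. Without the fold limit 9 were lower and 12 higher, against 23.9% and 21.9%. TYMS read 471 and 434 in siCont and 219 and 245 in siBRDT and fell by 48.8% (-0.96 ± 0.14, adjusted p 1.6e-04). POLA1 went from 368 and 417 to 187 and 269 (-0.80 ± 0.18, adjusted p 0.0034), and RFC3, a clamp loader subunit, from 550 and 596 to 386 and 303 (-0.74 ± 0.14, adjusted p 0.0012). PRIM2 went from 455 and 463 to 241 and 331 (-0.70 ± 0.16). MCM10 and RRM1 were the other genes called lower, and all of these groups were apart. CDT1 rose from 1635 and 1489 to 2405 and 2291 (0.59 ± 0.10, adjusted p 4.7e-04), and ORC6 from 352 and 382 to 467 and 577 (0.50 ± 0.14, adjusted p 0.010).

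The other genes followed throughout were not called in TE6. MCM2 read 5401 and 5309 against 3785 and 5036 (-0.29 ± 0.12, adjusted p 0.063), and MCM7 3604 and 3619 against 3391 and 3893 (0.01 ± 0.10). CDC6 read 1957 and 1958 against 1752 and 2124 (-0.02 ± 0.11), so that both MCM7 and CDC6 straddled their controls. PCNA, at 2803 and 2983 against 3962 and 3700 (0.40 ± 0.09, adjusted p 0.0037), and RRM2, at 1062 and 1126 against 1458 and 1498 (0.43 ± 0.10, adjusted p 0.0037), lay above their controls but under the fold limit. TK1 read 4290 and 4059 against 4817 and 4857 (0.21 ± 0.09, adjusted p 0.071). The split here depended on the scaling. Members called lower and higher numbered 5 and 8 with upper quartiles over a shared gene set, 1 and 11 with upper quartiles over each library's own genes, and 8 and 0 with equal totals, while the downward share of all calls went from 53.8% to 41.4%, 17.8% and 66.5% and the median of all genes from -0.04 to 0.06, 0.24 and -0.14. Without siCont replicate 2, 3 members were called lower, and without siBRDT replicate 1, 4 were called higher. All 10 interferon-response genes were called higher in the siBRDT libraries, and the ribosomal protein share was 13.9% and 13.4% against 10.4% and 10.2%. Their part in these values was not tested.

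TYMS was the gene called lower after siBRDT in both lines (1 of 4 calls in KYSE180 and 1 of 6 in TE6) and ORC6 the gene called higher in both (1 of 4 and 1 of 2). TYMS shares exon sequence with the antisense genes TYMSOS and ENOSF1, which reads without strand cannot separate. Tested directly, the siBRDT response differed between TE6 and KYSE180 in 29 of the 43 genes, against 41.9% of the 12612 genes tested. The fold change was lower in TE6 in 16 of them and higher in 13, against 22.5% and 19.4% of all genes. TK1 differed by 1.13 (interval 0.89 to 1.38, adjusted p 1.5e-06), with a fall in KYSE180 and a log2 fold change of 0.21 in TE6 that missed the threshold. With the length and GC trend removed the TE6 value turned to -0.35 and the difference was 0.72. DUT differed by 1.03 (0.73 to 1.33) in the same direction and MCM10 by -1.02 (-1.32 to -0.72), being lower than its controls in TE6 and higher in KYSE180. With upper quartiles over each library's own genes 12 members differed, a setting for which the share of all genes is not given here.

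Within TE6 the knockdowns could be set against each other without the shared controls. In 39 of the 43 genes the siTP63 libraries were lower than the siBRDT libraries (adjusted p under 0.05), and in 0 higher, against 19.9% and 19.3% of all genes. POLA2 was lower by 1.29 (interval -1.54 to -1.03, adjusted p 5.4e-06) on the log2 scale, at 342.4 and 341.8 in siTP63 and 791 and 883 in siBRDT. GINS1 was lower by 1.33 (-1.60 to -1.06) and PCNA by 0.96 (-1.16 to -0.75). MCM3, MCM5, PRIM2 and RPA1 did not differ by this test. The interval for MCM5 was -0.19 to 0.24.

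Forced BRDT expression in KYSE150 went with higher levels of part of the list. Of the 43 genes 10 were called higher and 0 lower, against 10.5% and 16.0% of the 12765 genes tested. The median was 0.32 against 0.02 for all genes, and 38 of the 43 values lay above 0, against 51.5% of all genes. In 34 genes every BRDT-OE library exceeded every control library, against 30.9% of all genes, and 29 genes were higher at an adjusted p under 0.05 without the fold limit, against 26.1%, and 2 lower, against 25.0%. Among the 8205 genes expressed at least as highly as the lowest member, 11.1% were called higher and 8.35% lower. Their median was 0.09, and 60.6% lay above 0. Of these genes 39.2% had every BRDT-OE library above every control library. At an adjusted p under 0.05, 33.5% were higher and 19.6% lower.

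RRM2 rose the most, from 3052, 3634 and 3790 to 7867, 8351 and 7377, a 2.25-fold level (1.18 ± 0.09, adjusted p 8.2e-06). CLSPN, a checkpoint mediator at the fork, rose from 982, 1312 and 919 to 2062, 2098 and 2122 (0.98 ± 0.12, adjusted p 8.5e-05). MCM10 rose from 1243, 1653 and 1278 to 2656, 2749 and 2610 (0.95 ± 0.10, adjusted p 4.9e-05). The 3 BRDT-OE libraries were close to each other in these genes, and the controls varied more. GINS4 rose from 284, 316 and 305 to 556, 547 and 557 (0.88 ± 0.08), and FEN1, the flap nuclease, rose by 82.4% to 4669, 4631 and 4532. ORC1, GINS2, CDC6, MCM4 and RFC3 were also called, and CHAF1A, at 0.50 when rounded, fell just short of the fold limit.

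CDC6 rose from 1562, 1930 and 1900 to 2620, 2590 and 2620 (0.54 ± 0.09, adjusted p 5.0e-04). MCM2 went from 4055, 4077 and 3961 to 5307, 5266 and 5162 (0.38 ± 0.06, adjusted p 5.8e-04), and TYMS from 762.5, 846 and 748 to 1083, 1078 and 994 (0.42 ± 0.08), both under the fold limit. TK1 read 2330, 2446 and 2933 against 3202, 3151 and 3186 (0.31 ± 0.09, adjusted p 0.012). In each of these the groups were apart. MCM7, at 9963, 10350 and 10810 against 10390, 10260 and 10170, and PCNA, at 2689, 2672 and 3654 against 3531, 3306 and 3330, did not separate, and CDT1 gave an adjusted p of 0.11. The 2 lower genes were RPA3 and RFC4 (-0.33 and -0.24).

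With equal totals 6 members were called higher, against 6.2% of all genes. The downward share of all calls went from 60.3% to 71.6% with upper quartiles over each library's own genes and 77.2% with equal totals. Of 9 interferon-response genes 8 were called lower in the BRDT-OE libraries, and their part in these values was not tested. The 39 members called lower after siTP63 in KYSE180 were nearly the whole list and held all 10 genes called here (25.6% of the 39). Of the 43 members, 26 were called lower after siTP63 in TE6, and these held 8 of the 10 (30.8% of the 26). Neither overlap was tested.

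Related genes outside the list were counted in the same fits. Of 30 other replication genes, 16 were called lower and 1 higher after siTP63 in KYSE180 (25.7% and 23.6% of all genes), and 17 and 1 in TE6 (20.6% and 18.3%). The helicase RECQL4 and the ribonuclease subunit RNASEH2A (log2 fold change -1.70 for both) in KYSE180 and the nuclease-helicase DNA2 (-1.59) in TE6 fell most. After siBRDT the counts were 0 and 4 in KYSE180 (15.8% and 14.5% of all genes), led by POLE3 (1.35), and 10 and 4 in TE6 (18.1% and 15.6%). In BRDT-OE cells 0 were lower and 4 higher (16.0% and 10.5% of all genes), led by the methylation reader UHRF1 (1.01). In KYSE150 after siTP63 limma called 0, with 10 lower at an unadjusted p under 0.05, against 9.12% of all genes.

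Of 28 other nucleotide genes, to be read against the same shares of all genes, siTP63 lowered 20 and raised 3 in KYSE180, with the nucleoside diphosphate kinase NME1 (-2.48) and the guanine nucleotide enzyme IMPDH2 (-2.21) at the front, and lowered 11 and raised 0 in TE6, led by the purine synthesis enzyme PPAT (-2.40). After siBRDT 3 fell and 4 rose in KYSE180, and 6 fell and 5 rose in TE6, near the shares of all genes (15.8% and 14.5%, and 18.1% and 15.6%). RRM2B, the p53-inducible reductase subunit, fell most in both (-1.10 and -1.87). BRDT-OE gave 0 lower and 5 higher.

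Among 32 regulators of the G1/S transition (31 in the KYSE150 siTP63 table), siTP63 lowered 14 and raised 5 in KYSE180, where 25.7% and 23.6% of all genes were called, and lowered 17 and raised 1 in TE6, where 20.6% and 18.3% were. After siBRDT in KYSE180, with 3 lower and 4 higher (all genes 15.8% and 14.5%), E2F1 rose from a mean of 438 to 1118 (1.35). In TE6 13 fell and 3 rose (all genes 18.1% and 15.6%), and cyclin A2 (CCNA2) fell by 1.20 on the log2 scale. BRDT-OE raised 12 and lowered 3 (all genes 10.5% and 16.0%), and cyclin E2 (CCNE2, 1.33) and cyclin D1 (CCND1, 1.09) rose most. Against the same shares, of 20 mitosis genes siTP63 lowered 17 in KYSE180 and 20 in TE6, siBRDT 1 in KYSE180 and 10 in TE6, and BRDT-OE raised 1. In KYSE150 17 of the 20 were lower after siTP63 at an unadjusted p under 0.05, against 9.12% of all genes, with 0 called. Interferon-response genes after siBRDT in KYSE180 numbered 1 lower and 2 higher of 10 (all genes 15.8% and 14.5%). After siTP63 in KYSE150 limma called 0 of 9, with 4 higher at an unadjusted p under 0.05, against 8.67% of all genes.

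Levels per kilobase of the longest annotated transcript placed TK1, MCM7, PCNA, MCM2, MCM3, RFC4 and GMNN among the 5 highest members in 1 or more control groups. TK1 led in KYSE180 (12300 per kilobase in the controls of the siTP63 experiment, libraries 11400 and 13200) and in TE6 (2480, 2410 to 2550), and MCM3 in KYSE150 (4660, 4440 to 4890, in the siCont group). In that group MCM7 came next at 4510, and its range of 4040 to 4970 took in that of MCM3. In TE6 PCNA followed TK1 at 2130 (2060 to 2190), below the range of TK1. The MCM2-7 subunits, which act as a hexamer, were not level with each other. MCM7 stood at 6830 and MCM6 at 607 in the siTP63 controls of KYSE180, and MCM2 at 1560 and MCM5 at 467 in TE6. CLSPN was the lowest or next to lowest member in all 5 control groups. Exons of 16 of the 43 genes overlap another gene, such as GINS2 with GSE1, RPA3 with UMAD1, PRIM1 with NACA and MCM7 with AP4M1, and 10 have annotated pseudogenes, among them PCNA, RRM2, RPA2, RPA3 and DUT, so their counts are less certain.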

How the data were processed

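RNA was extracted with QIAzol and libraries were made with a TruSeq V2 kit, which does not mark strand. The submitters' processing notes name STAR 2.6.0, HTSeq 0.11.2, DESeq2 1.24.0 and hg38. Counting options and annotation are not given in the sources used here, nor is which siRNA was used for RNA-seq. The 5 deposited tables hold signal values that the authors made by dividing gene read counts by a size factor per library, each table separately, and whole reads could be recovered from them. Values were therefore compared only within a table, apart from differences of log2 fold changes. Libraries held 7582089 to 19372441 recovered reads, whose number limits precision.

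Values were tested as log2(value + 1) with limma 3.58.1 in R 4.3.3 (lmFit, eBayes with trend) over genes with a table mean of at least 10. The 3 TE6 groups shared 1 fit. P-values were adjusted by the Benjamini-Hochberg method over all genes of a comparison, two-sided throughout. A call needed an adjusted p under 0.05 and a log2 fold change of 0.5 or more in size, and differences between comparisons an adjusted p under 0.05 only. Intervals of differences are 95% intervals from limma's moderated degrees of freedom.

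The members and all gene lists were chosen with earlier results of these data known. Genes were named by rule as the up to 4 members with the largest calls in each direction among those with a mean of at least 100, the 8 genes followed in every comparison, and the 3 members with the smallest p per difference. Members named outside it (for example those with overlapping groups) were chosen after their values were seen.

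Alternatives were another pseudocount, no filter on low values, upper-quartile rescaling, a fitted trend with length and GC content removed (found for 23161 symbols, 87.4%), no fold limit, a replicate block, leaving out each library, fitting 2 TE6 groups at a time, and count models fitted to the recovered reads with DESeq2 1.42.0 or with edgeR 4.0.16. Equal library totals, a crossed pairing in KYSE150 and the background of higher expressed genes were added after seeing the data. The planned upper-quartile rescaling was first run on each library's own genes, and was redefined over a shared gene set after those results had been seen. Both are given. The tests were checked on simulated data with a small set of changed genes, equally up and down, and little spread. That setting does not cover the unequal totals or the wide spread in some of these experiments. Gene overlaps and transcript lengths came from GENCODE v44, and promoters from the first RefSeq entry per symbol.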

Additional observations from a re-analysis of the deposited data

Results flagged for a closer look

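Differences between the cell lines under the same knockdown, tested as such, were the results that met a rule for a closer look. After siTP63, 27 of the 43 genes differed between TE6 and KYSE180. The differences (TE6 minus KYSE180, log2) were 1.87 for GINS2, 1.55 for RPA3 and 1.34 for MCM5, each with a fall in KYSE180 and a smaller fall or none in TE6. After siBRDT, 29 of the 43 genes differed, with 1.13 for TK1, 1.03 for DUT and -1.02 for MCM10. The shares of all genes that differed were 55.0% and 41.9%. With equal totals the member medians after siTP63 were -0.66 in KYSE180 and -0.59 in TE6, against -1.18 and -0.58 as deposited. With upper quartiles over each library's own genes 17 and 12 members differed, and the shares of all genes in that setting are not given. TK1 after siBRDT in TE6 turned from 0.21 to -0.35 when the length and GC trend was removed, with a difference of 0.72. In each of these comparisons TE6 and KYSE180 came from separate tables, so line and experiment cannot be told apart. Groups held 2 or 3 libraries, too few for a check of single libraries that stand apart.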

How the results depend on the processing

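Of 228 summary values under alternatives other than left-out libraries, 190 kept their direction and stayed within the limits set for a like value. Of 1283 values of single members, 1196 kept direction and side of the threshold, 24 lost and 50 gained the call, and 13 reversed. The cause of these changes was not tested. Counts of members differing between lines under alternatives are given below without shares of all genes.

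Without the fold limit siBRDT gave 9 members lower and 15 higher in KYSE180 and 12 higher in TE6, and BRDT-OE 2 lower and 29 higher. Equal totals gave 7 higher for siBRDT in KYSE180, 0 higher for siBRDT in TE6 and 6 higher for BRDT-OE. Of all genes 18.5%, 11.8% and 6.2% were then called higher, and the member medians were 0.17, 0.00 and 0.20. For siTP63 in KYSE180 and KYSE150 the medians were -0.66 and -0.74. Upper quartiles over a shared gene set gave 8 higher for siBRDT in TE6, against 19.8% of all genes, at a median of 0.20. Medians were -1.11 and -0.49 for siTP63 in KYSE180 and TE6. Upper quartiles over own genes gave 1 lower and 11 higher for siBRDT in TE6, against 4.4% and 20.3% of all genes. Medians were then 0.14 and 0.38 for siBRDT in KYSE180 and TE6 and 0.24 for BRDT-OE. For siTP63 in KYSE180, TE6 and KYSE150 they were -0.96, -0.50 and -0.74. Between TE6 and KYSE180, 17 members differed for siTP63 and 12 for siBRDT. Removing the length and GC trend gave 18 lower for siTP63 in KYSE150, against 2.78% of all genes. In TE6 it gave 33 lower after siTP63, against 18.9% of all genes, at a median of -0.75. It also gave 2 members (KYSE180) and 1 member (TE6) differing from KYSE150. edgeR and DESeq2 each gave 4 higher for siBRDT in TE6, against 16.3% and 14.4% of all genes. DESeq2 also gave 15 lower for siTP63 in KYSE150, a median of -0.57 for siTP63 in TE6, and 4 members (KYSE180) and 1 member (TE6) differing from KYSE150.

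MCM7 reversed after siBRDT in KYSE180 with equal totals (0.05) and own upper quartiles (0.02), after siBRDT in TE6 without the length and GC trend (-0.17), with equal totals (-0.09) and without siBRDT replicate 2 (-0.09 to 0.11 over left-out libraries), and in BRDT-OE without the trend (0.08) and without control replicate 3 (-0.04 to 0.02). CDC6 after siBRDT in TE6 reversed with upper quartiles (0.08, or 0.26 over own genes), without the trend (0.20), with DESeq2 (0.01) and without siBRDT replicate 1 (-0.16 to 0.12). TK1 after siBRDT in TE6 went from 0.21 to -0.35 without the trend.

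Leaving out 1 library gave 4 to 6 lower, 3 to 5 higher and medians of 0.03 to 0.09 for siBRDT in KYSE180, and 3 to 8 lower (3 without TE6 siCont replicate 2), 2 to 4 higher (4 without siBRDT replicate 1) and medians of -0.01 to 0.18 for siBRDT in TE6. For siTP63 it gave 38 to 39 lower with medians of -1.25 to -1.16 in KYSE180, medians of -0.60 to -0.56 in TE6, and 1 to 4 lower (1 without either siCont, 4 without either siTP63 library) with medians of -0.88 to -0.78 in KYSE150, and for BRDT-OE medians of 0.25 to 0.34. Members differing after siTP63 numbered 0 to 9 between KYSE150 and KYSE180 (9 without KYSE150 siTP63 replicate 1) and 0 to 11 between TE6 and KYSE150 (11 without KYSE150 siTP63 replicate 2), and after siBRDT 19 to 30 between TE6 and KYSE180 (19 without TE6 siCont replicate 2). Where a group kept 1 library, it was assumed to vary like the others.

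Replicate numbers did not pair the libraries, since deviations of same-numbered libraries correlated at -0.70 to 0.18. With a replicate block, member counts were those without it (39 and 26 lower for siTP63 in KYSE180 and TE6, 10 higher for BRDT-OE) except 38 in place of 39 for TE6 siTP63 against siBRDT. Crossing the numbers in KYSE150, where the correlation was -0.70, gave 36 members lower, with 1774 of all genes lower and 1626 higher. That pairing was chosen from the same deviations that set its error, so its calls cannot serve as a test.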
